A study of Rattus norvegicus with 69 samples.

Results

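The ADAM genes (a disintegrin and metalloprotease) whose proteins lie on the surface of sperm were followed across rat testis. The members were all genes out of Adam1a, Adam2, Adam3a, Adam4, Adam5, Adam6, Adam7, Adam18, Adam24 and Adam32 that the platform annotation gave as the single symbol of a probe set. Of these 10 symbols, 8 had a probe set, 1 each, among 14217 genes on the array; Adam5 and Adam24 were not analysed here. All 8 passed the filter on low signal in each fit, which asked for 3 or more samples with a signal above 43.7, the table's median.

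ADAM proteins carry a prodomain, a metalloprotease-like domain, a disintegrin domain and a membrane anchor. In mouse, where most of the work on these genes has been done, ADAM1 and ADAM2 pair to form fertilin, and ADAM2 and ADAM3 are needed for sperm to reach the egg through the oviduct and to bind its coat. Their assembly in the spermatid depends on chaperones of the endoplasmic reticulum, so that loss of a single partner removes several ADAM proteins from mouse sperm. Within the testis these genes are known from meiotic and postmeiotic germ cells, while mouse ADAM7 is made in the epididymis and passed to sperm there.

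RNA was measured on Affymetrix arrays in 69 samples from Sprague Dawley rats. Among isolated cells, round spermatids and pachytene spermatocytes had 4 samples each, spermatogonia plus early spermatocytes had 3 and Sertoli cells 4; beside these stood 5 whole testis samples and 49 of seminiferous tubules in 10 stage groups, with 5 samples a group and 4 for stage IV-V. A tubule sample was a pool of 25 segments from each of 2 rats aged 55 to 60 days, and adult cells came from rats of the same age, whereas spermatogonia plus early spermatocytes came from rats aged 18 to 20 days. The labels give a purity of about 85% for Sertoli cells and of 85% to 95% for germ cells, and no age for whole testis was used here. The animals carried no stated mutation and no treatment. The group called IX-XI here has IX-XII in the source names, so that it may hold stage XII as well. The tubule pools are given as independent samples; for isolated cells and whole testis nothing says that replicates came from separate animals, so that their p-values measure only the spread between samples, which may be technical.

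Levels are array signals: linear intensities, with a trimmed mean of 100 on every array. Array medians lay between 30.9 and 58.2, and the number of arrays limits the precision of each mean. The ratio of the 3′ to the 5′ control probe sets of Gapdh was 1.75 to 2.44 in round spermatids, against 1.07 to 1.51 in pachytene spermatocytes; the part of this in the results was not tested. Of the marker genes of each cell type, 8 of 8 for round spermatids, 2 of 5 for pachytene spermatocytes, 4 of 5 for spermatogonia and 8 of 8 for Sertoli cells had their highest mean among the 4 isolated cell groups in the cells of that name. The summed signal of 5 Leydig cell markers was 190 to 239 in round spermatids, 156 to 324 in pachytene spermatocytes, 5844 to 9200 in spermatogonia plus early spermatocytes and 4716 to 6177 in Sertoli cells. Differences were taken as log2 of the signal plus 5.11 and fitted with limma over all probe sets, with Benjamini-Hochberg adjustment; a change was called at an adjusted p under 0.05 and at least 2-fold. A level is not compared between genes, since different probe sets bind with different strength.

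In the current rat gene order (RefSeq, GRCr8), Adam32, Adam5, Adam3a and Adam18 stand next to each other on chromosome 16, between Adam9 and Ido1. Adam4 and Adam6 lie on chromosome 6 with other genes around them, Adam4 beside its near copy Adam4l1 and Adam6 beside Tmem121 at the immunoglobulin heavy chain locus. Adam2 and Adam7 are on chromosome 15, the first between Gulo and Ephx2, the second near Adamdec1. Adam1a is on chromosome 12 with only Tmem116 between it and Adam1b. The 3 measured members of the chromosome 16 cluster, with Adam2, are those that were high from pachytene spermatocytes on in the results below, and the members on chromosomes 6 and 12 are those that were higher in round spermatids.

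Promoter sequence was on hand for 2 of the 8 members, Adam1a and Adam4, both of which were higher in round spermatids than in pachytene spermatocytes. The sequences are the 250 bases before the annotated start (RefSeq, GRCr8), 5′ to 3′ on the strand of the gene, chr12:40677871-40678120 on the plus strand for Adam1a and chr6:106856980-106857229 on the minus strand for Adam4. Capitals mark TGACG, the half-site of the cyclic AMP response element, which the spermatid activator CREM binds in mouse; both strands were searched.
Adam1a: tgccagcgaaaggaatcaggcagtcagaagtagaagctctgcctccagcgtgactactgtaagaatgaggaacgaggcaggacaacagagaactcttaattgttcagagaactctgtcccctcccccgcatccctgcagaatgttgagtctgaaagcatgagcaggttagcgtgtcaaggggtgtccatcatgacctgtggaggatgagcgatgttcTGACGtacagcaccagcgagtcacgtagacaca
Adam4: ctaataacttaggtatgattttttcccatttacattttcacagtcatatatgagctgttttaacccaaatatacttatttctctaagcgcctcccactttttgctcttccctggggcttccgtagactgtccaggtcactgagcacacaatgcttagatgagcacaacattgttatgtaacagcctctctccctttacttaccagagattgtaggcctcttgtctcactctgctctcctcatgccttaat
Adam1a held 1 half-site, whose first base lay at -33 from the start, and Adam4 held 0. Among 27457 promoter windows of the same length, 19.0% held the half-site on either strand, and 1.7% held the full site TGACGTCA, which contains the half-site and was in neither member. A match of letters is a description of the window and not a binding site. The 300-base windows of Adam4 and Adam4l1 overlapped in an alignment with 278 bases of each facing the other, of which 262 (94.2%) were identical. Over all 322 columns of the alignment, gaps included, 81.4% were identical. Whether the Adam4 probe set also binds Adam4l1 RNA was not tested, so that its signal may hold both.

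Along the cycle of the seminiferous epithelium, the members peaked at different stages. Adam2 and Adam18, and with smaller ranges Adam3a and Adam32, were highest around stages XIII-XIV and I, when meiosis is completed and new round spermatids appear, and lowest between VIIa.b and VIII. Adam6 and Adam4 were low in stages I to IV-V, many-fold higher from VIIa.b, and highest at VIII and IX-XI, where spermatids begin to elongate; Adam1a was highest at VI. In all, 4 of the 8 members (Adam1a, Adam2, Adam4 and Adam6) were stage-regulated, that is past limma's F-test over the 10 stages with at least 2-fold between highest and lowest stage, beside 32.5% of all tested probe sets. By the F-test alone 7 of 8 passed, beside 54.3% of all. The median range was 1.18 on the log2 scale for the members and 0.89 for all tested probe sets. In tubules, fewer cells of a type and less RNA per cell cannot be told apart.

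**Figure D1:**
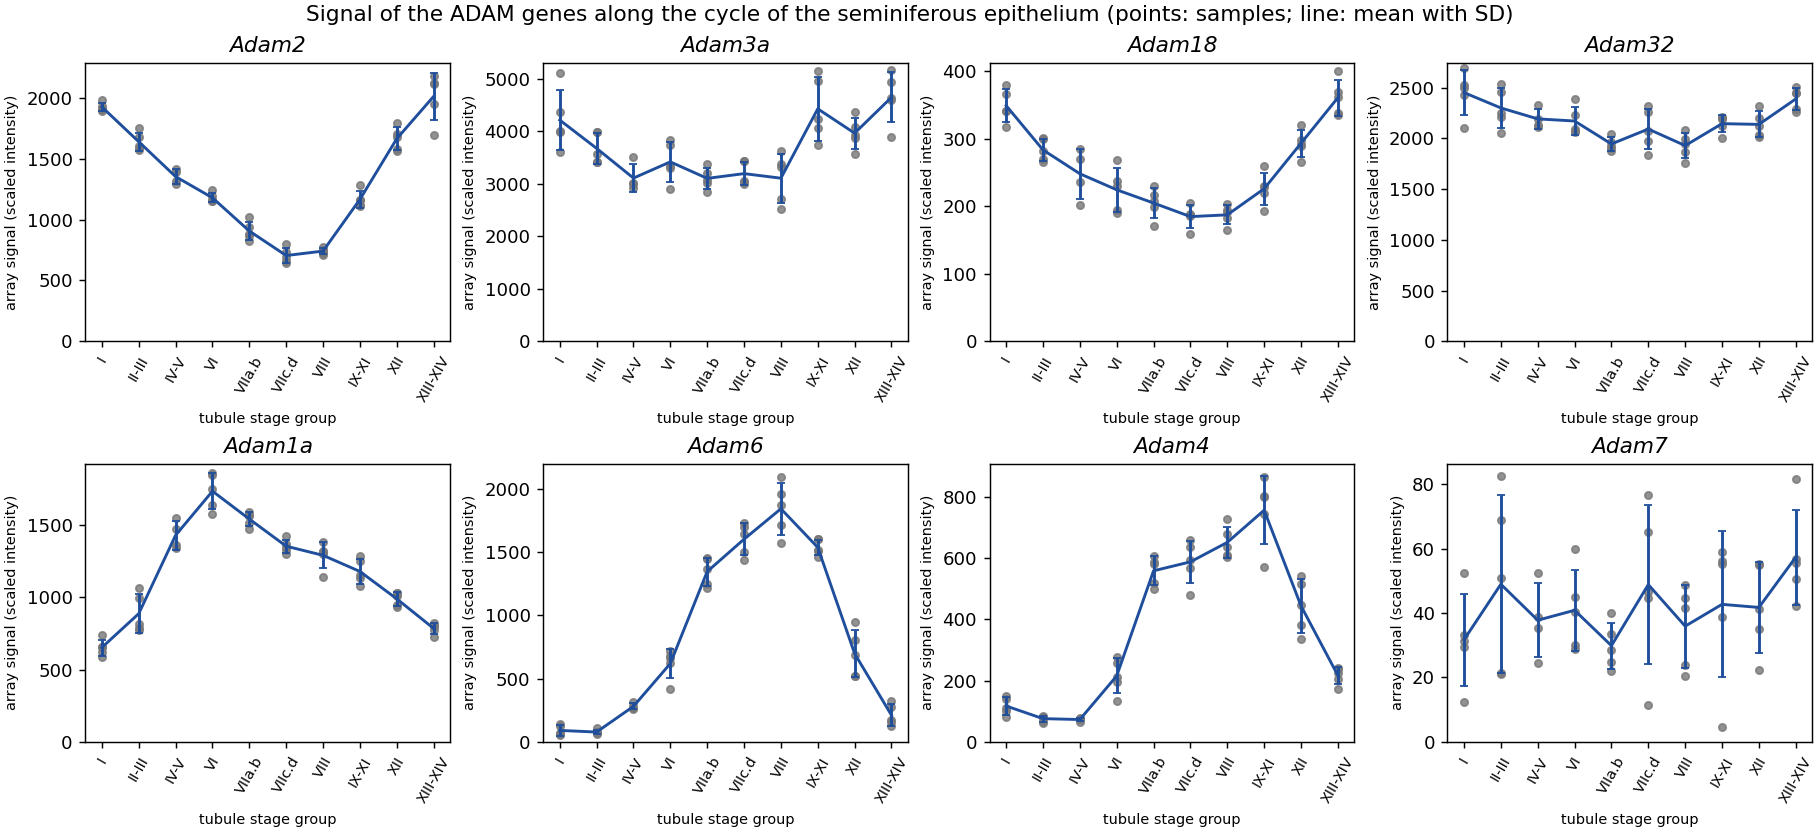
Array signal (linear scaled intensity, vertical axis from 0) of each of the 8 ADAM genes in the 10 tubule stage groups (horizontal axis); points are samples, lines join means and bars are SD (n = 5, 4 at stage IV-V). Adam6 has 1840.5 at VIII and 77.6 at II-III, while Adam2 has its lowest mean, 704, at VIIc.d and Adam7 stays between 29.9 and 57.3.

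Adam2, the beta subunit of fertilin, had 1696, 2118, 2179, 2114 and 1953 at stage XIII-XIV, against 796, 731, 693, 643 and 660.2 at stage VIIc.d. No sample of the first stage came near the second. The means were 2012 ± 195 at XIII-XIV and 704 ± 60.9 at VIIc.d (SD, n = 5 each), a 2.84-fold difference (log2 1.51, SE 0.06; limma F-test over stages, adjusted p = 3.61e-29). Its stage means ran 1926, 1639.6, 1353, 1179, 906, 704, 741, 1166, 1664 and 2012 from stage I to XIII-XIV. The mean was thus lower at each stage down to VIIc.d and higher again after VIII, with no single step of 2-fold: the steepest, IX-XI against VIII, was 1.57-fold (adjusted p = 5.45e-11).

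Adam18, a sperm ADAM with a protein of unknown action, followed the same course at lower signal. It had 369.7, 335, 338, 362 and 400.3 at stage XIII-XIV, against 187, 186, 158, 205 and 189 at stage VIIc.d. These did not overlap, and the means of 361 ± 26.6 and 185 ± 16.7 (SD, n = 5 each) differed 1.93-fold (log2 0.95, SE 0.09; adjusted p = 1.13e-14), just under the 2-fold asked for a call. Over the 10 stage means Adam18 and Adam2 correlated at r = 0.972, and over all 15 group means at r = 0.977; these points share arrays and are a description.

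Adam3a, which encodes cyritestin, had 4608, 4941, 5170.2, 4633 and 3899.8 at stage XIII-XIV, against 3621, 3378, 3314, 2524 and 2706 at stage VIII. The ranges stood apart, but the difference was 1.503-fold (log2 0.59, SE 0.10; adjusted p = 4.52e-08). Its second highest mean, 4431 ± 604 at IX-XI, was 1.43-fold above that at VIII (adjusted p = 9.08e-05). Stage VIII had the lowest mean on the log2 scale. As signals, the mean of 3105 at VIIa.b was just below the 3109 at VIII, and that of 3111 at IV-V just above. The highest IX-XI samples, 4955 and 5160, were replicates 2 and 3. Their 3′ to 5′ ratios of actin were 2.65 and 2.72, against 1.81, 1.61 and 1.61 in replicates 1, 4 and 5. The part of this in the IX-XI mean was not tested. At the step before, VIII against VIIc.d, the means were 3109 ± 469.7 and 3196 ± 222 (adjusted p = 0.896).

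Adam32, a testis ADAM and the neighbour of the Adam3a cluster, had the narrowest range of the members: 2697, 2434, 2101, 2502 and 2531 at stage I, against 2085, 1995, 1949, 1759 and 1862 at stage VIII. The lowest stage I sample lay just above the highest stage VIII sample. The difference was 1.27-fold (log2 0.34, SE 0.07; adjusted p = 0.000122), a range smaller than those of all but 3.79% of tested probe sets. Its means in the other 8 groups lay between 1946 and 2389.7.

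Adam1a, which encodes an alpha subunit of fertilin, had 1580.5, 1851, 1638, 1749.7 and 1863 at stage VI, against 626, 587, 659, 659.7 and 737 at stage I. Each stage VI sample exceeded every stage I sample 2-fold. The means were 1736 ± 126 at VI and 654 ± 55.4 at I (SD, n = 5 each), a 2.65-fold difference (log2 1.40, SE 0.07; adjusted p = 1.57e-23). Stage means ran 654, 888, 1431, 1736, 1543, 1355, 1292, 1180.4, 991 and 786 from I to XIII-XIV. The signal therefore climbed over 3 steps, of which the largest was 1.62-fold (IV-V against II-III, adjusted p = 2.38e-09), and came down over the rest of the cycle in steps of at most 1.26-fold.

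Adam6, whose mouse protein is found in complexes with ADAM2 and ADAM3, had the largest stage range. It had 2094, 1867, 1959, 1567 and 1716 at stage VIII, against 108, 76.4, 78.3, 67.2 and 58.3 at stage II-III. The means of 1840.5 ± 206 and 77.6 ± 18.7 (SD, n = 5 each) differed 22.6-fold (log2 4.50, SE 0.20; adjusted p = 1.25e-29), a range above those of 99.6% of tested probe sets. Stage means ran 90.6, 77.6, 281, 618, 1345, 1600.3, 1840.5, 1535, 697 and 210.2 from I to XIII-XIV.

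Adam4, a further sperm surface ADAM in mouse, had 572, 865, 803, 798 and 742 at stage IX-XI, against 65.2, 76.4, 74.4 and 75.9 at stage IV-V. Its lowest sample at IX-XI was far above the highest at IV-V. The means of 756 ± 112 (SD, n = 5) and 73.0 ± 5.26 (SD, n = 4) differed 9.67-fold (log2 3.27, SE 0.15; adjusted p = 2.35e-29). Stage means ran 117, 75.8, 73.0, 215, 558, 587, 651, 756, 444 and 217 from I to XIII-XIV. Adam4 and Adam6 correlated at r = 0.900 over the 10 stage means and at r = 0.953 over the 15 group means, whereas over stages Adam6 had r = -0.83 with Adam2 and -0.41 with Adam3a. Adam4 had r = -0.07 with Adam3a, whose second highest stage, IX-XI, was the highest of Adam4, and 0.36 with Adam1a.

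Adam7 stood apart from the others. Its samples lay between 4.58 and 82.5 across all stages, with 22 of the 49 above the median of the table, and its stage means were 29.9 to 57.3. The highest stage, XIII-XIV, had 50.6, 56.7, 42.1, 55.6 and 81.6, and stage I, with the lowest mean on the log2 scale, had 52.4, 29.4, 33.2, 12.2 and 31.3. These overlapped, and the F-test gave an adjusted p of 0.706. Without detection calls, a testis signal of Adam7 was not shown to lie above background.

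**Figure D2:**
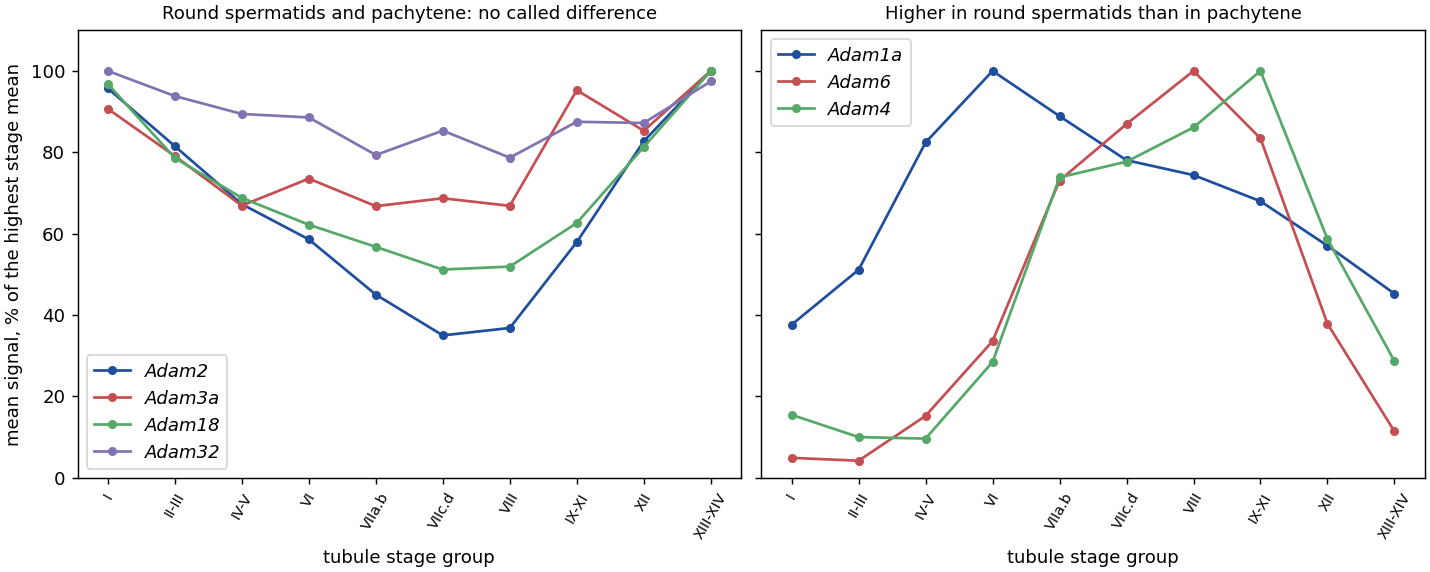
Stage means as a percentage of the highest stage mean of each gene (vertical axis, 0 to 110) in the 10 tubule stage groups (horizontal axis); the left panel holds Adam2, Adam3a, Adam18 and Adam32, which had no called difference between round spermatids and pachytene spermatocytes, the right panel the 3 that were higher in round spermatids. Adam7, which had no called difference either, is not drawn. Adam2 reaches its lowest mean at VIIc.d, where Adam6 and Adam4 are near their highest.

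Between neighbouring stages, all 9 called steps of the members belonged to Adam4 and Adam6. At IV-V against II-III, Adam6 rose 3.51-fold (adjusted p = 5.84e-09), beside 2.12% of probe sets changed. At VI against IV-V, where 0.467% changed, Adam4 rose 2.74-fold (adjusted p = 8.06e-09) and Adam6 2.15-fold (adjusted p = 0.000645). At VIIa.b against VI, where 2.17% changed, Adam4 rose 2.63-fold (adjusted p = 2.63e-10) and Adam6 2.20-fold (adjusted p = 3.35e-05); without stage VI replicate 1 the Adam6 difference was 0.999 on the log2 scale and just under 2-fold. That replicate had the lowest signal of its group for both genes, 132 for Adam4 and 416 for Adam6.

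Both genes then came down, Adam6 first. At XII against IX-XI, where 1.33% changed, Adam6 fell by 1.17 on the log2 scale (adjusted p = 3.40e-05), while the Adam4 difference of -0.77 (adjusted p = 0.000189) was under 2-fold. At XIII-XIV against XII, where 0.934% changed, Adam6 fell by 1.76 (adjusted p = 7.81e-09) and Adam4 by 1.003 (adjusted p = 2.28e-06). The Adam4 value sat at the 2-fold limit: it was -0.926 to -0.996 without any of stage XII replicates 1, 4 and 5 or stage XIII-XIV replicates 1 and 3. At I against XIII-XIV, where 1.40% changed, Adam6 fell by 1.18 (adjusted p = 2.58e-05), with samples that overlapped, since 2 of the stage I samples, at 142 and 128, were above the lowest XIII-XIV sample, at 122.

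No member was called at the other 4 steps, where 3.64% (II-III against I), 1.12% (VIIc.d against VIIa.b), 0.530% (VIII against VIIc.d) and 3.41% (IX-XI against VIII) of probe sets changed. At an unadjusted p under 0.05 the counts at these steps were 4, 2, 0 and 4 members, with no share of all probe sets computed at that threshold. Over the plateau of Adam4 and Adam6, from VIIa.b to IX-XI, no step of either exceeded 1.19-fold. Adam2 had adjusted p-values under 0.05 at 7 of the 10 steps, each under 2-fold, with 4 downward steps and 3 upward ones.

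The isolated cells divided the members into those high from pachytene on and those higher in round spermatids. Adam2, Adam3a, Adam18 and Adam32 were already high in pachytene spermatocytes and had no called difference in round spermatids. Adam1a, Adam4 and Adam6 were 3.95-fold to 5.58-fold higher in round spermatids than in pachytene spermatocytes. All of these were lower in spermatogonia plus early spermatocytes, and Adam7 was near or below the median of the table throughout.

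**Figure D3:**
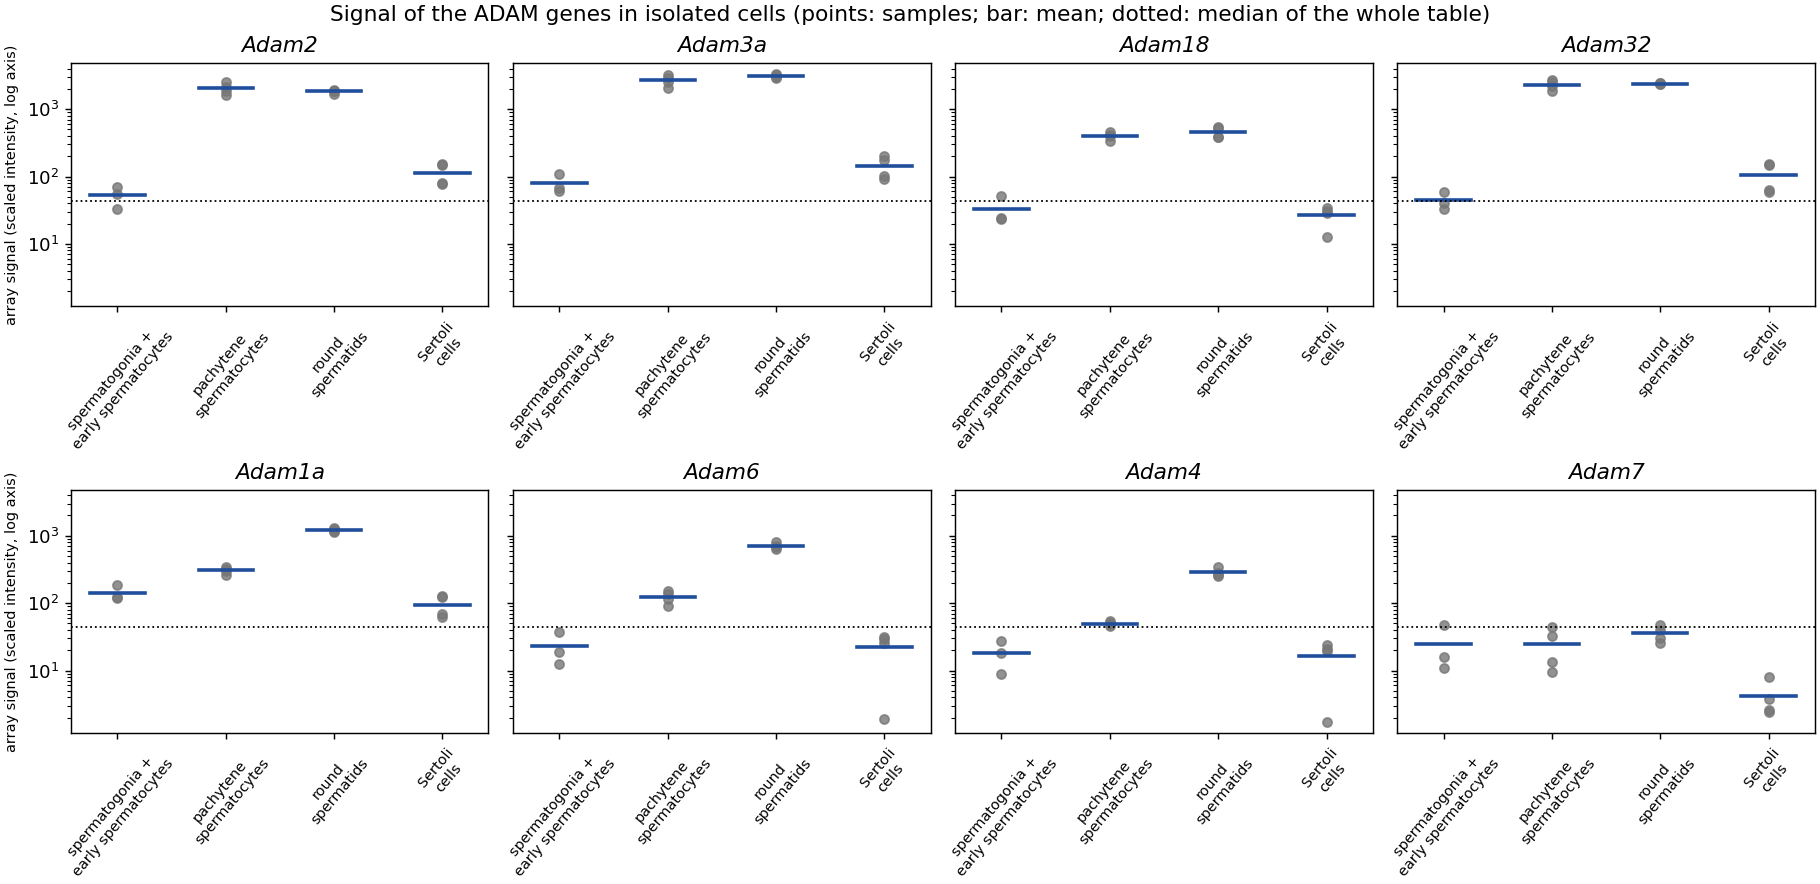
Array signal (log axis) of the 8 ADAM genes in spermatogonia plus early spermatocytes (n = 3), pachytene spermatocytes, round spermatids and Sertoli cells (n = 4 each); points are samples, bars means and the dotted line the median of the whole table, 43.7. Adam2, Adam3a, Adam18 and Adam32 are already high in pachytene spermatocytes, with no called difference in round spermatids. Adam1a, Adam6 and Adam4 are higher in round spermatids than in pachytene spermatocytes.

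Pachytene spermatocytes were set against spermatogonia plus early spermatocytes, and 7 of 8 members were higher, beside 18.5% of all probe sets. The members' median difference was 2.87 on the log2 scale, against -0.15 for all probe sets, a value that was 0.11 after quantile normalization. Adam32 had 2493, 1835, 2170.3 and 2743 in pachytene spermatocytes, against 33.2, 40.6 and 58.6 in spermatogonia plus early spermatocytes. This 47.6-fold difference (log2 5.57, SE 0.27; adjusted p = 2.10e-12) was the largest among the members.

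Adam2 had 2114, 1647, 1883 and 2502 in pachytene spermatocytes, against 54.2, 32.8 and 70.3 in spermatogonia plus early spermatocytes (36.4-fold, adjusted p = 9.54e-13). Adam3a had 2934, 2086, 2529 and 3222 in pachytene spermatocytes, against 67.2, 60.6 and 110.2 in spermatogonia plus early spermatocytes (32.5-fold, adjusted p = 1.57e-12). Adam18 had 398, 335, 408 and 455 in pachytene spermatocytes, against 23.3, 24.2 and 51.7 in spermatogonia plus early spermatocytes (11.1-fold, adjusted p = 9.76e-10). In none of these did the groups overlap, and the earlier cells lay near the median of the table. The sizes are therefore loose: with 32 added the log2 differences were 4.94 for Adam32, 4.62 for both Adam2 and Adam3a, and 2.75 for Adam18.

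The 3 members of the later pattern had smaller differences here. Adam6 was 4.83-fold higher in pachytene spermatocytes (123 ± 26.8, n = 4) than in spermatogonia plus early spermatocytes (23.0 ± 13.3, n = 3; adjusted p = 0.000118), and the log2 difference was 2.27 with 5.11 and 1.51 with 32 added. Adam4 was 2.51-fold higher (49.8 ± 3.41 against 18.0 ± 9.13; adjusted p = 0.00512) and Adam1a 2.14-fold (306 ± 35.3 against 143 ± 37.6; adjusted p = 0.000157). Adam1a and Adam4 lost their call when 32 was added before the logarithm (log2 0.97 and 0.73), and Adam1a also without spermatogonia plus early spermatocytes replicate 2 (0.99). Adam7 had 24.7 ± 16.2 in pachytene spermatocytes and 24.7 ± 19.7 in spermatogonia plus early spermatocytes (adjusted p = 0.974). The summed signal of 8 Sertoli markers was 537 to 815 in pachytene spermatocytes and 3089 to 4371 in spermatogonia plus early spermatocytes, with 4 and 1 of the 8 below the median of the table. Macrophage and blood markers, 5 in number, summed to 86.3 to 110.5 in pachytene spermatocytes and 1525 to 2120.2 in spermatogonia plus early spermatocytes, with 4 and 1 of the 5 below the median of the table; the part of either list in the result was not tested.

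Round spermatids were then set against pachytene spermatocytes. Higher in round spermatids were 3 of 8 members, beside 8.90% of probe sets, and none was lower; the members' median difference was 0.41 on the log2 scale, against -0.06 for all probe sets. Adam1a had 1143, 1317, 1169 and 1245 in round spermatids, against 320.2, 296, 345 and 262 in pachytene spermatocytes. The groups were well apart, with a 3.95-fold difference (log2 1.98, SE 0.20; adjusted p = 1.19e-07).

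Adam6 had 695, 804, 674 and 636 in round spermatids, against 115, 137, 152 and 90.1 in pachytene spermatocytes, a 5.58-fold difference (log2 2.48, SE 0.40; adjusted p = 3.91e-05). Adam4 had 254, 344, 265 and 277 in round spermatids, against 48.7, 53.6, 51.2 and 45.6 in pachytene spermatocytes, a 5.26-fold difference (log2 2.39, SE 0.36; adjusted p = 1.75e-05). The pachytene signal of Adam4 was close to the median of the table. As a share of round spermatids, the pachytene signal was 25.1% for Adam1a, 17.6% for Adam6 and 17.5% for Adam4. Markers of round spermatids had shares from 12.9% for Spaca3, 13.3% for Spam1 and 13.6% for Acrv1 up to 82.2% for Catsper2, so that the 3 members lay inside the range of these 8 markers; the part of round spermatids within the pachytene preparation was not tested.

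For the other members the groups overlapped. Adam2 had 1922, 1694, 1858 and 1852 in round spermatids, inside the range of the pachytene samples, and a log2 difference of -0.14 (SE 0.22; adjusted p = 0.669). The differences were 0.22 for Adam3a (SE 0.22; adjusted p = 0.465), 0.18 for Adam18 (SE 0.24; adjusted p = 0.601), 0.06 for Adam32 (SE 0.25; adjusted p = 0.875) and 0.60 for Adam7 (SE 0.40; adjusted p = 0.253). A p above the threshold does not show that these levels were equal. Among the 5 pachytene markers, the pachytene signal ran from 48.1% of that in round spermatids for Ccna1 to 244.8% for Sycp1.

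The changing balance of Adam1a RNA against Adam2 RNA was taken as log2 Adam1a minus log2 Adam2 within each array, without Adam1b. Only its changes carry meaning, since the probe sets differ. It averaged -1.56 at stage I, -0.89 at II-III, 0.08 at IV-V, 0.55 at VI, 0.77 at VIIa.b, 0.94 at VIIc.d, 0.80 at VIII, 0.02 at IX-XI, -0.75 at XII and -1.35 at XIII-XIV, with SDs of 0.04 to 0.24. Adam1a RNA thus gained on Adam2 RNA up to VIIc.d and lost ground after VIII. In isolated cells it was -0.75, -0.36, -0.67 and -0.57 in round spermatids, against -2.70, -2.46, -2.43 and -3.23 in pachytene spermatocytes. The difference of the means was 2.12, which is that of Adam1a less that of Adam2 as given above, and so a description of the same values. In spermatogonia plus early spermatocytes the log2 ratio averaged 1.39, above every stage mean, and in Sertoli cells -0.26. The Adam2 mean in spermatogonia plus early spermatocytes, 52.4, was near the median of the table.

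**Figure D4:**
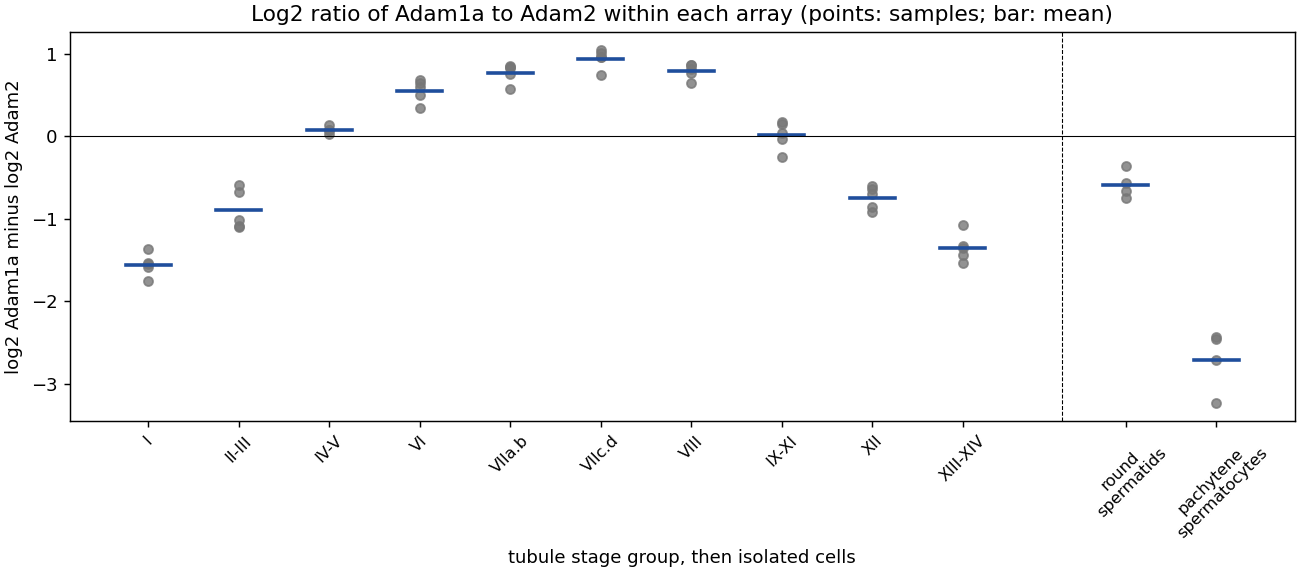
Log2 Adam1a minus log2 Adam2 within each array (vertical axis) in the 10 tubule stage groups and, right of the dashed line, in round spermatids and pachytene spermatocytes (n = 4 each); points are samples and bars means. Among the groups drawn, the mean is highest at VIIc.d, 0.94, and lies at -0.59 in round spermatids and -2.70 in pachytene spermatocytes.

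Against Sertoli cells, the somatic cells of the tubule, all 8 members were higher in round spermatids, beside 33.0% of probe sets, and all 8 in pachytene spermatocytes, beside 33.6%. The log2 difference in round spermatids was 4.57 for Adam32, 4.46 for Adam3a, 4.00 for Adam2 and 3.67 for Adam1a (adjusted p at most 6.69e-05 for all 8). For Adam6, Adam18 and Adam4 the mean Sertoli signal was below the median of the table and was not shown to exceed background, so that the size of the difference depended on the added value: with 5.11 and with 32 added it was 4.95 and 3.80 for Adam6, 3.91 and 3.06 for Adam18, and 3.94 and 2.73 for Adam4. For Adam7 the fit set 35.7 ± 9.61 in round spermatids against 4.16 ± 2.56 in Sertoli cells, both below the median of the table, and with 32 added the difference was under 2-fold. Sertoli cells still carried signal above the median of the table in all 4 samples for Adam1a, Adam2, Adam3a and Adam32. Adam2 had 151, 148, 78.1 and 80.6 there, Adam32 146, 152, 58.2 and 63.5, Adam3a 205, 175, 92.1 and 103, and Adam1a 123, 128, 68.7 and 61.7. The same 2 samples were the higher ones each time.

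As a share of pachytene spermatocytes, the Sertoli signal was 4.55% for Adam32, 5.34% for Adam3a, 5.62% for Adam2 and 6.63% for Adam18. It was 16.9% for Adam7, 17.9% for Adam6, 31.1% for Adam1a and 33.0% for Adam4. Markers of pachytene spermatocytes gave shares of 3.95% for Ccna1, 23.1% for Hspa2, 27.1% for Ldhc, 58.7% for Sycp1 and 61.5% for Sycp3. The 8 round spermatid markers summed to 129 to 227 in spermatogonia plus early spermatocytes, against 1090.5 to 4507 in Sertoli cells, and 7 and 4 of the 8 were below the median of the table; their part in the Sertoli signal of the members was not tested.

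Spermatogonia plus early spermatocytes were set against Sertoli cells last. Adam7 was higher (log2 1.53; adjusted p = 0.00485), 1 of 8 members beside 24.9% of probe sets, at 10.9, 47.3 and 16.1 against 2.42, 2.55, 3.77 and 7.88. The Sertoli signals were near the added 5.11, and the call was lost after quantile normalization (0.93, adjusted p = 0.0874) and with 32 added (0.60). Adam2 fell by 1.05 (adjusted p = 0.000875) and Adam32 by 1.07 (adjusted p = 0.00212), 2 of 8 beside 12.0% of probe sets. Adam2 had 54.2, 32.8 and 70.3 in spermatogonia plus early spermatocytes, below all 4 Sertoli samples given above, and Adam32 overlapped. Both calls sat near 2-fold and were lost without Sertoli cells replicate 1 (-0.90 and -0.87) or replicate 2 (-0.91 and -0.85), the samples with the higher signals of both genes. The Adam2 call was also lost without spermatogonia plus early spermatocytes replicate 2 (-0.77) and the Adam32 call without replicate 1 (-0.90). Adam3a had a difference of -0.79 (limma adjusted p = 0.00758), which was under 2-fold. Without spermatogonia plus early spermatocytes replicate 3 the Adam3a difference was -1.03 (limma adjusted p = 0.00183) and was called.

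Whole testis was set against the mean of the 10 stages, and 0 of 8 members changed, beside 3.51% of probe sets. By limma's adjusted p alone 5 passed, each with under 2-fold, and 5 had an unadjusted p under 0.05. The share of all probe sets passing either p alone was not computed, so these counts have no background beside them. Adam1a had 955, 794, 941, 828 and 889 in whole testis, against stage means of 654 to 1736, with a log2 difference of -0.36 (adjusted p = 8.19e-07), and Adam3a (-0.38, adjusted p = 6.51e-05) and Adam32 (-0.25, adjusted p = 0.000178) were also below the stages. Adam2 (0.13, adjusted p = 0.0292) was above, and Adam6 had a positive difference on the log2 scale (0.41, adjusted p = 0.0226) but a lower mean signal, 671 in whole testis against 829.5 as the mean of the stage means. The sign for Adam6 thus depended on the scale, since the fit averages the logarithms of stages that differ 22.6-fold. Stages were weighted equally here, not by their length in the testis.

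Ordered over the 15 groups, Adam2 was highest in pachytene spermatocytes and then in stages XIII-XIV and I, whose samples overlapped, and lowest in spermatogonia plus early spermatocytes. Adam18 had its highest mean in round spermatids, which overlapped pachytene spermatocytes. Adam1a, Adam6 and Adam4 were higher in their best tubule stages than in round spermatids: 1736 against 1218 for Adam1a, 1840.5 against 702 for Adam6 and 756 against 285 for Adam4. The same held for Adam3a, with 4650 at XIII-XIV against 3102.5 in round spermatids. Adam2 (2012 against 1831) and Adam32 (2453 against 2386) had small differences with samples that overlapped, and Adam7 was weak in both (57.3 against 35.7). Adam18 went the other way (361 against 457). The stage of the isolated round spermatids was not given in the labels.

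The genes whose 15 group means were most like those of each member, out of 12639 compared, were named by Pearson correlation alone. For Adam2 these were C8h3orf62 (r = 0.996), Fbxw5 (0.995) and Rhbdd3 (0.992), and for Adam18 Xpo4 (0.995), Asl (0.993) and Lmod2 (0.990). For Adam3a they were Nudt4 (0.997), Kctd16 (0.997) and Sh3glb1 (0.995), and for Adam32 Cetn1 (0.998), the centrin of the sperm centriole, Ccdc30 (0.998) and Tmbim7 (0.996). For Adam1a they were Tmco5a (0.993), Lpp (0.989) and C4h3orf22 (0.989). Adam6 was nearest to Tubg1 (0.984), Ccdc159 (0.981) and Agmo (0.979), and Adam4 to Otub2 (0.982), Sufu (0.982) and Etv2 (0.981). No other member was among the 3 genes nearest to any member, although Adam3a and Adam32 correlated with each other at r = 0.993. For Adam7 they were Trabd2b (0.954), Ina (0.950) and Slc4a1 (0.950).

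Other genes of the same process were described by counts. Among chaperones, processing enzymes and membrane partners on which sperm ADAM proteins depend in mouse, 7 of 11 tested genes were stage-regulated, beside 37.6% of all genes taken with 1 probe set each; the median range was 1.33 on the log2 scale, against 0.91 for all genes. Prss37, a pseudoprotease needed for ADAM3 on mouse sperm, had 4465 ± 977 at IX-XI and 40.7 ± 19.1 at IV-V, 106-fold apart and with the peak stage of Adam4. Hspa5, the general chaperone of the endoplasmic reticulum, had 2804 ± 313 at stage I and 609 ± 71.8 at VIIc.d (4.58-fold), the lowest stage of Adam2 and Adam18. Calr3, the testis calreticulin, had 367 ± 55.6 at VIIc.d and 144 ± 31.96 at II-III (2.51-fold).

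The remaining regulated genes of this group were Tspan8 (5.27-fold), Tpst2 (3.67-fold), Pcsk4, a protease that processes sperm surface proteins (2.81-fold), and Canx (2.24-fold). The lowest stage means of Tspan8 (8.47 at VIII, against 66.6 at I) and Tpst2 (43.5 at XII) were below the median of the table. Their folds have no firm size. In round spermatids 5 of 11 were higher than in pachytene spermatocytes, beside 11.1% of all genes, among them Calr3 (adjusted p = 1.06e-05), Pcsk4 (log2 1.30; adjusted p = 8.64e-09) and Ace, the testis form of which releases anchored proteins (3.29; adjusted p = 4.08e-12). In pachytene spermatocytes 5 of 11 were higher than in spermatogonia plus early spermatocytes, beside 21.1% of all genes, and 1 was lower, beside 28.2%.

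Among other sperm proteins of gamete binding and fusion, 9 of 11 tested genes were stage-regulated, beside 37.6% of all genes, with a median range of 2.42 on the log2 scale, against 0.91 for all genes. Spam1, the sperm hyaluronidase, had 2713 ± 226 at VI, the peak stage of Adam1a, and 21.2 ± 6.97 at XII (106-fold). Tmem81, a partner of the fusion protein complex, also was highest at VI (1788 ± 148, against 54.8 ± 22.4 at XII), as was Spaca3 (28.8-fold). Cd46 was highest at VIIc.d (21.0-fold), and Zpbp2, an acrosomal protein that binds the zona, at XIII-XIV with Adam2 (15.6-fold). The lowest-stage signal of Spam1, like that of Prss37, was below the median of the table, so that these folds have no firm size. In round spermatids 7 of 11 were higher than in pachytene spermatocytes, beside 11.1% of all genes, and 8 of 11 were higher in pachytene spermatocytes than in spermatogonia plus early spermatocytes, beside 21.1%.

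ADAM genes other than the members were counted the same way. Of 30 names, 10 had a probe set and 8 were tested over stages, 4 of them stage-regulated, beside 37.6% of all genes. Among these, Adam23 (47.7 at VI and 7.98 at XIII-XIV) and Adam11 (44.8 at VIII and 13.4 at XII) were weak. Even their highest stage means were close to the median of the table. By limma's adjusted p and fold 0 of 7 tested in cells were higher or lower in round spermatids than in pachytene spermatocytes. Beside these, 11.1% of all genes were higher and 13.1% of probe sets lower. An unadjusted p under 0.05 was found for 3 of the 7, with no share of all genes computed at that threshold. Lower in pachytene spermatocytes than in spermatogonia plus early spermatocytes were 5 of 7, beside 28.2% of all genes. Adam17, the main sheddase of cell surface proteins, had 212 ± 13.0 at XIII-XIV and 98.2 ± 10.2 at IV-V (2.10-fold). Adam10, a related sheddase, was 116 ± 9.99 at VIIa.b and 46.7 ± 21.5 at I (2.58-fold) and fell by 2.97 on the log2 scale in pachytene spermatocytes, set against spermatogonia plus early spermatocytes (adjusted p = 3.05e-08). In the same comparison Adam19 fell by 2.23 (adjusted p = 4.59e-07) and Adam33 by 2.88 (adjusted p = 1.16e-09).

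Of integrins and tetraspanins named as partners of fertilin on the egg, 0 of 4 tested genes were stage-regulated by limma's F-test and fold, beside 37.6% of all genes. By the adjusted p of the F-test alone 1 of the 4 passed, Cd81 (0.000646), beside 54.3% of all probe sets, and Cd81 alone passed the unadjusted p. So few genes do not set the list apart from these shares. In pachytene spermatocytes 4 of 5 were lower than in spermatogonia plus early spermatocytes, beside 28.2% of all genes; the Sertoli and Leydig marker sums given above were lower as well, and their part in these counts was not tested. Itgb1, the common beta subunit, had a mean of 31.3 in pachytene spermatocytes and 1442 in spermatogonia plus early spermatocytes.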

How the data were processed

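RNA from 69 rat testis samples was measured on 1 Affymetrix array each. The deposited values are linear intensities, 1 per probe set and sample; the authors made them with MAS5, per the submitters' processing notes, which give no version, and the mean of each array, trimmed by 2% at either end, was 100. The scaling target and any filter are not given in the sources used here. Of 31099 probe sets, 57 controls were left out. Each of the 8 members had 1 probe set in the platform's table, matched by its single symbol.

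Analysis used log2 of intensity plus 5.11, the 10th percentile of the table, and limma 3.58.1 in R 4.3.3 with a variance trend. Probe sets tested numbered 22258 in the stage fit, 20253 in the fit of isolated cells and 22504 in the fit with whole testis; p-values were adjusted by Benjamini-Hochberg within each contrast, two-sided. Members and lists, and the rule naming the examples (up to 5 a list, by stage range among regulated genes or, where fewer than 5 were regulated, by mean signal), were chosen with earlier results of these data known; Calr3, Canx, Ace and single marker genes were named after their values were seen. A gene with several probe sets was taken by the one with the highest mean. Fold changes on this scale are smaller than ratios of signals for weak genes. Alternatives were other added values, no filter, quantile normalization, no variance trend, a replicate block, samples with high 3′ to 5′ control ratios left out, and each sample left out in turn. No 2 arrays correlated above 0.978, so none was taken as a duplicate. Promoter windows were read with Python 3.11.15 and aligned with Biopython 1.88.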

Additional observations from a re-analysis of the deposited data

Results flagged for a closer look

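Of 112 groups of 4 or 5 samples checked, 2 held a sample far from the others of its group, and chance alone gives about 1 in 20 groups (5%). Adam2 had 1280 at stage IX-XI replicate 1, while the other 4 samples of that stage lay between 1110 and 1160. Adam3a had 3520 at stage IV-V replicate 2, against 2920 to 3010 in the other 3 samples. Neither value lies in the highest or lowest stage of its gene.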

How the results depend on the processing

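The counts of members called over stages (4), steps (9), isolated cells (29 in 5 comparisons) and whole testis (0) stayed within 1.5 times under all 28 recomputations with another setting and all 167 with 1 sample left out; the cell count was 21 with 32 added, and 24 to 30 with 1 sample left out. Calls lost at 32 added, beside those in the report, were Adam6 at stage I against XIII-XIV (-0.97), Adam2 and Adam32 in spermatogonia plus early spermatocytes against Sertoli cells (-0.78 both), Adam4 in pachytene spermatocytes against Sertoli cells (0.78), Adam4 at XIII-XIV against XII (-0.92) and Adam7 in all 3 germ cell groups against Sertoli cells (0.60, 0.61 and 0.90). Only differences that were not called changed sign. For whole testis, Adam4 was -0.0346 with 32 added and -0.0544 after quantile normalization, which also gave 0.0399 for Adam7. It further gave -0.13 for Adam32 in round against pachytene, and -0.47, -0.44 and -0.36 for Adam4, Adam6 and Adam18 in spermatogonia plus early spermatocytes against Sertoli cells. Without spermatogonia plus early spermatocytes replicate 3, the sample with the high 3′ to 5′ ratio, these 3 were -0.0685, -0.16 and -0.0697, and Adam7 in pachytene spermatocytes against spermatogonia plus early spermatocytes was -0.13. The causes were not tested.

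With 1 sample left out, ranges that crossed 0 were those of Adam4, Adam6 and Adam18 in spermatogonia plus early spermatocytes against Sertoli cells (-0.28 to 0.54, -0.37 to 0.49, -0.0697 to 0.43), Adam7 in pachytene spermatocytes against spermatogonia plus early spermatocytes (-0.33 to 0.30), Adam32 in round against pachytene (-0.0429 to 0.15), and, for whole testis, Adam4 (-0.00218 to 0.0347), Adam7 (-0.23 to 0.30) and Adam18 (-0.0614 to 0.17).

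The replicate numbers were not used to pair the samples in the main fits. Of 216 same-numbered pairs of tubule samples, 41 had deviations correlated above 0.1. Their mean correlation was 0.0568, against -0.0141 for differently numbered pairs, and what same-numbered samples share was not tested. With the replicate block, 7381 probe sets were stage-regulated, against 7240 without it, and 1 uncalled value changed sign, Adam6 in spermatogonia plus early spermatocytes against Sertoli cells (-0.0535). Each member had 1 probe set, so no other could be tried. With no detection calls, signals near 43.7, such as those of Adam7 and of Adam4 in pachytene spermatocytes, were not shown to exceed background.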
